A study of Mus musculus with 20 samples.

Results

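Collagens, other matrix proteins, the enzymes that remodel them and marker genes of hepatic stellate cells were examined in 20 mouse livers. The set held 38 genes, chosen by symbol from a named list, and all 38 were found among the 27052 genes of the knockdown counts and the 26286 genes of the overexpression counts. The mice were male C57BL/6J, injected into a vein at 8 weeks of age with an AAV8 vector (an adeno-associated virus that reaches the liver), kept on the diet labelled HF/HS and sampled at 25 weeks. There were 4 groups of 5 livers: shPKLR mice received a short hairpin RNA that targets Pklr, shLUC mice its control hairpin to the luciferase of fireflies, PKLR mice the cDNA of Pklr, and GFP mice the control of that cDNA. Per the series design, the thyroxine binding globulin promoter was used for the Pklr vectors. It is active in hepatocytes, a different cell type from stellate cells. There was no group without a vector or on another diet. Pklr encodes the liver form of pyruvate kinase, and the series asks what it does in fatty liver disease.

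Hepatic stellate cells lie between hepatocytes and the sinusoids. At rest they store vitamin A as retinyl esters, which Lrat makes, and express Reln, Hgf and Hand2. When liver is injured they take on a myofibroblast state, in which they produce fibrillar collagens, lysyl oxidases that cross-link them, matrix metalloproteinases and their inhibitors, and contractile proteins such as the smooth muscle actin encoded by Acta2. Transforming growth factor beta (Tgfb1) and platelet-derived growth factor, which acts through Pdgfra and Pdgfrb, are the best known signals for that change. Several of these genes are also expressed by portal fibroblasts, smooth muscle and endothelium. In whole liver, fewer cells of a type and less RNA per cell cannot be told apart.

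Most of the set had lower levels with PKLR than with GFP: 36 of 38 log2 fold changes were negative, with a median of −0.74 against 0.01 over all 15842 genes tested. Only Thbs2 and Bgn passed edgeR's test, and both fell. With the hairpin no member passed. The GFP group stood apart by its mean. This was the highest of the 4 group means for 34 of 38 members (89.5%). Among all 16407 genes in the joint model of both experiments the share was 26.9%. GFP replicate 2 was the highest GFP liver for 23 members and GFP replicate 1 for 13. The means were not taken again without those livers.

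Library totals ran from 29933820 to 45413803 counts, except 167891680 in shPKLR replicate 4. Pklr followed the vectors without overlap within each experiment, at 354 to 634 CPM (reads of a gene per 1000000 reads of a library, scaled between libraries) with shLUC, 25.4 to 83.3 with shPKLR, 64.3 to 144 with GFP and 378 to 913 with PKLR. The control groups also differed in Pklr, with every GFP liver below every shLUC liver. The PKLR range overlapped that of shLUC, so raised and lowered Pklr are each relative to the control of the same experiment. The 8 hepatocyte markers summed to between 60397 and 111835 CPM in every liver, and the quiescent marker Reln was between 17.4 and 57.9 CPM. The series design gives the livers as animals of a group. A p-value here thus sets a difference between groups against the spread between livers within groups.

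The bases just before the transcription start are shown for the pair of members that fell with PKLR (Thbs2 and Bgn), for 2 collagens whose response differed between the experiments (Col3a1, Col6a3) and for the quiescent markers Reln and Lrat. Each is the 150 bases upstream of the start in RefSeq, on the gene's own strand and on build GRCm38.p6. Capitals mark matches, on either strand, to TATAAA (the TATA box), CCAAT (the site of nuclear factor Y), GGGCGG (the GC box), CAGAC (the core bound by Smad proteins) or TGANTCA (the site of Jun and Fos proteins), and matches that overlap are capitalised as a single run.
Thbs2 (chr17:14694263-14694412, minus strand): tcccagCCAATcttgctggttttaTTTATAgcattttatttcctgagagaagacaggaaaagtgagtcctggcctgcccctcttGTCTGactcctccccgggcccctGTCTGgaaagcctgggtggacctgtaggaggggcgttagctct
Bgn (chrX:73483451-73483600, plus strand): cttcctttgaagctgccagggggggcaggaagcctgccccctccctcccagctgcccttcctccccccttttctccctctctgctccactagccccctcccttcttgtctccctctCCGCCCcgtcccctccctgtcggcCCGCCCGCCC
Col3a1 (chr1:45311388-45311537, plus strand): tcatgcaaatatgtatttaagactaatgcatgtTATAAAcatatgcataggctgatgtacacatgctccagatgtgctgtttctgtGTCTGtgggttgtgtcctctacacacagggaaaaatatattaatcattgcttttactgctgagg
Col6a3 (chr1:90843972-90844121, minus strand): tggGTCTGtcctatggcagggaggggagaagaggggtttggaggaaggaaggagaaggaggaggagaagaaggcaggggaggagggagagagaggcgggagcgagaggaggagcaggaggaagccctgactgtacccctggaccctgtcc
Reln (chr5:22344706-22344855, minus strand): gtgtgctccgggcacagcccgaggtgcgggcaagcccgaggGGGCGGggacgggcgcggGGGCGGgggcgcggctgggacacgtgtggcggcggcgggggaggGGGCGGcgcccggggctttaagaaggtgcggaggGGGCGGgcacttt
Lrat (chr3:82903975-82904124, minus strand): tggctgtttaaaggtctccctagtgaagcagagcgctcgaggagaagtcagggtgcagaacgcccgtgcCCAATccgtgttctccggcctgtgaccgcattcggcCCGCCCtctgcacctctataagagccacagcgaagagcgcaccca
Thbs2 and Col3a1 hold TATAAA and CAGAC in these bases, and Bgn, Reln and Lrat hold the GC box. RefSeq gave a longer window, from 250 bases before to 50 bases after the start, for 26 of the 38 members (30 windows, since a gene can have several starts). A stretch after the start lay in a GENCODE transcript of the gene for 24 of the 30 windows. Among those that did not match was the window of Thbs2. The GC box was in 18 of these 30 windows (60%), against 35.7% of 32851 windows over all genes. CAGAC was in 16 (53.3%, against 49.6%), CCAAT in 11 (36.7%, against 37.4%), TATAAA in 3 (10%, against 13.6%) and TGANTCA in 1 (3.33%, against 7.81%). The CArG box, the site of serum response factor, was searched only as CCWWWWWWGG, with W for A or T. It was in 0 of the 30 windows and in 1.63% of all. Sites with another base in the core were not counted, and Tagln had no window. These are letter matches and no test was made of them.

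Some members lie side by side on GRCm38. Col3a1 and Col5a2 are 24614 bases apart on chromosome 1, Col6a1 and Col6a2 are 85161 bases apart on chromosome 10, and Lum and Dcn are 46984 bases apart on the same chromosome. Col4a1 and Col4a2 start head to head on chromosome 8 and share 22 exon bases. Loxl2 shares 301 exon bases with the antisense gene Gm27177, Hand2 shares 461 with Hand2os1, Timp3 shares 1733 with Syn3 and Tagln shares 108 with Pcsk7. The strand setting of the counting is not given in the sources used here, so reads in these shared bases may belong to either gene.

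Per length of merged exons, the most abundant members were the small leucine-rich proteoglycans Bgn and Dcn, at a mean level over the 4 groups of 18.8 and 17.5 CPM per kb. Col14a1, a collagen that sits on the surface of fibrils, followed at 5.63 CPM per kb, then the membrane-bound metalloproteinase Mmp14 at 4.55 and the basement membrane collagen Col4a1 at 4.07. The lysyl oxidase Lox was lowest, at 0.073. Thus the level of Bgn per length was far above that of Col1a1 (2.25 CPM per kb), the main chain of type I collagen, in these livers. The 2 chains of type I collagen kept a median Col1a1 to Col1a2 ratio per length of 1.46 with shLUC, 1.74 with shPKLR, 2.03 with GFP and 1.53 with PKLR, and the ranges of all 4 groups overlapped.

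Fibrillar collagens form the rigid fibres of scar tissue. In CPM, Col1a1 was at 42.3, 48.7, 12.4, 26.4 and 17.6 in GFP livers 1 to 5 and at 19.5, 5.83, 9.30, 20.6 and 6.16 in PKLR livers 1 to 5. It was at 7.30, 6.53, 6.72, 10.02 and 5.18 in the shLUC livers and at 5.72, 5.47, 13.7, 12.1 and 14.0 in the shPKLR livers. GFP livers 1 and 2 were the highest of the 20, and the lowest GFP liver was below the highest PKLR livers. The log2 fold change of Col1a1 was −1.25 (SE 0.47) with PKLR, at an adjusted p of 0.185 by edgeR's quasi-likelihood test with Benjamini-Hochberg adjustment over all genes, which is the test behind every adjusted p here unless another is named. Col3a1, the chain of type III collagen, was at 106, 81.4, 27.4, 50.2 and 37.2 CPM with GFP and at 38.8, 18.7, 22.1, 29.1 and 15.1 CPM with PKLR. Its log2 fold change was −1.27 (SE 0.38, adjusted p = 0.114), and Col1a2 had −1.05 (SE 0.36, adjusted p = 0.157). Col5a1 and Col5a2, chains of type V collagen, which starts fibrils, had log2 fold changes of −0.69 and −1.26 (adjusted p = 0.104 and 0.089). All 5 fibrillar collagens thus had negative values with PKLR, with a median of −1.25, and 0 of 5 passed the adjusted threshold, while 5 of 5 had an unadjusted p under 0.05.

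Type VI collagen forms beaded filaments around cells from the products of Col6a1, Col6a2 and Col6a3. Col6a3 was at 25.9, 38.5, 13.1, 20.7 and 13.4 CPM in the GFP livers and at 11.8, 8.36, 8.19, 11.9 and 5.53 CPM in the PKLR livers. Every PKLR liver was below every GFP liver for Col6a3 and for Col6a1. Among all genes tested, 2.17% separated the groups in that direction, and 2 of the 38 members did. The log2 fold changes were −1.27 (SE 0.32, adjusted p = 0.0745) for Col6a3, −1.02 (SE 0.25, adjusted p = 0.0706) for Col6a1 and −0.96 (SE 0.31, adjusted p = 0.124) for Col6a2. Col14a1 had −0.73 (SE 0.22, adjusted p = 0.108).

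Basement membrane collagens had smaller values or a positive one. Col4a1 and Col4a2, the chains of the ubiquitous type IV network, had log2 fold changes with PKLR of −0.48 (SE 0.27, adjusted p = 0.381) and −0.07 (SE 0.21, adjusted p = 0.897). Col15a1 was at 7.32, 7.49, 5.26, 7.35 and 4.52 CPM with GFP and at 8.30, 9.31, 9.46, 10.9 and 10.2 CPM with PKLR. Every PKLR liver was above every GFP liver, as for 2.7% of all genes, and Col15a1 was the only member so placed. Its log2 fold change was 0.61 (SE 0.15) and its adjusted p was 0.0596, short of the threshold. It was the only member with a positive value at an unadjusted p under 0.05, against 24 members with a negative value at that level, where 9.16% of all genes tested had a negative one.

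**Figure D1:**
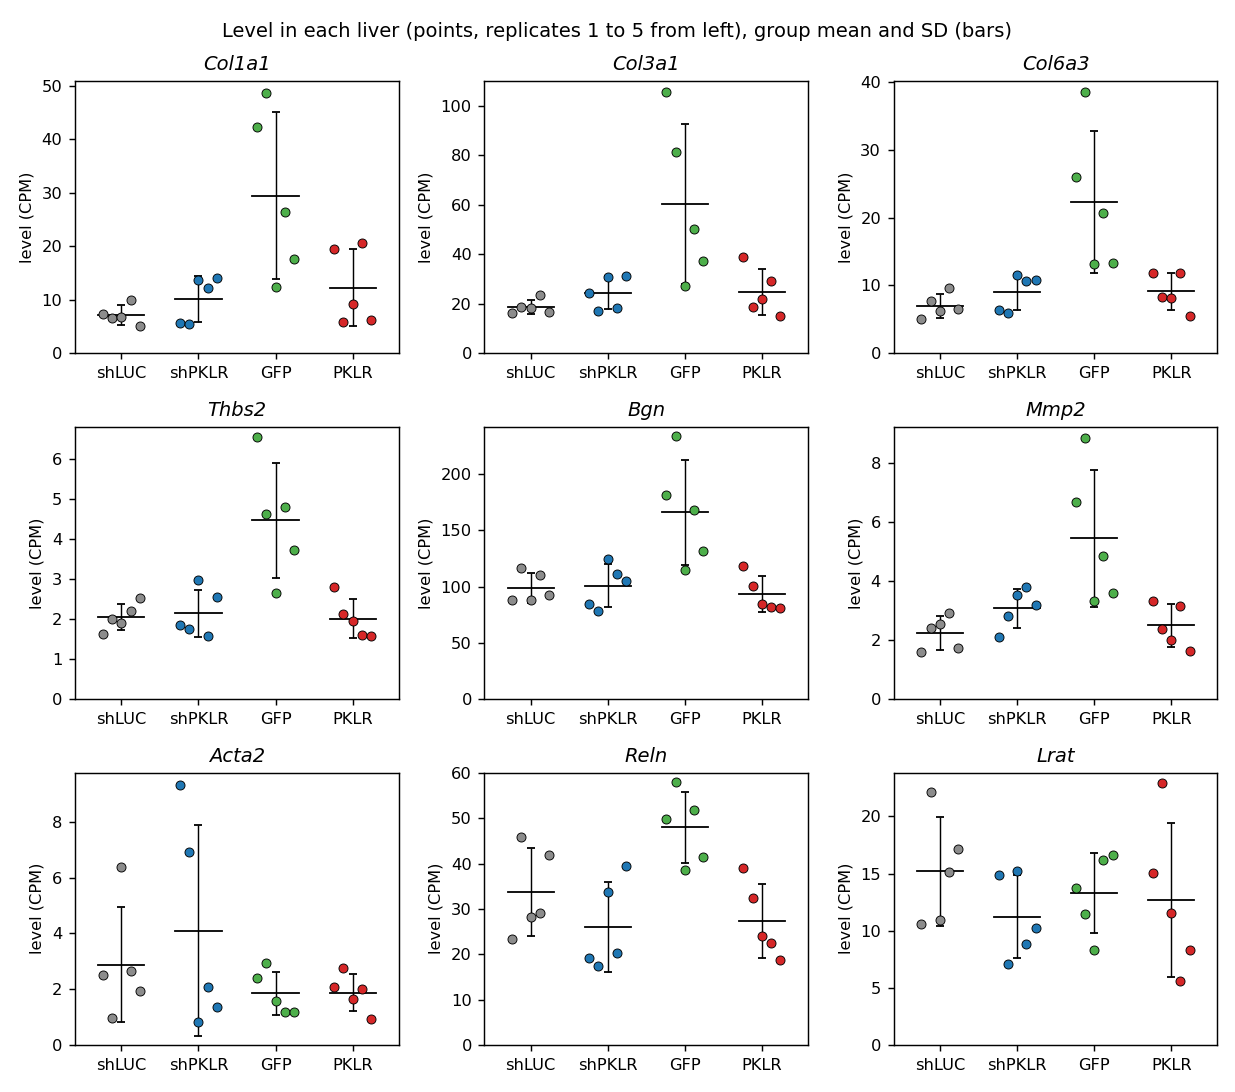
Level in CPM (y axis, from 0) of 9 members in each liver (points, replicates 1 to 5 from left) of the 4 vector groups (x axis), with the group mean (long bar) and SD (n = 5). GFP livers 1 and 2 hold the highest Col1a1 and Col3a1 levels (42.3 and 48.7 CPM, 106 and 81.4 CPM), while Acta2 is highest in shPKLR livers 1 and 2.

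The proteoglycans and matrix glycoproteins held the 2 members that fell with PKLR, 2 of 38, where 0.846% of all genes tested were called lower. Thbs2, a matricellular protein that binds collagen fibrils and metalloproteinases, was at 6.55, 4.62, 2.64, 4.79 and 3.74 CPM with GFP and at 2.79, 2.12, 1.96, 1.60 and 1.58 CPM with PKLR. The highest PKLR liver was above the lowest GFP liver, and the other livers did not overlap. Thbs2 fell by 1.13 on the log2 scale (SE 0.24, adjusted p = 0.0341), and its group means were 4.47 ± 1.44 and 2.01 ± 0.493 CPM (SD, n = 5 each). Bgn, the proteoglycan biglycan, was at 181, 234, 115, 168 and 132 CPM with GFP and at 118, 101, 84.8, 82.2 and 81.0 CPM with PKLR. It fell by 0.82 on the log2 scale (SE 0.18, adjusted p = 0.0473), with 1 PKLR liver above the lowest GFP liver. Both calls were lost when any of GFP livers 1, 2 or 4 or PKLR livers 2 to 5 was left out; the adjusted p then ranged up to 0.0836 for Thbs2 and 0.112 for Bgn.

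The other 6 of this role also had negative values and did not pass. Fbn1, the microfibril protein fibrillin, had −0.99 (SE 0.27, adjusted p = 0.089), and Dcn (decorin) had −0.64 (SE 0.17, adjusted p = 0.0779). Lum (lumican) had −0.93, Fbln1 −1.08, Thbs1 −1.04 and Postn (periostin) −0.58, with adjusted p between 0.113 and 0.28. Across the role the median was −0.96. Thbs1 was under 4 CPM in every liver, and its values ranged from 0.63 to 3.00 CPM among the GFP livers alone.

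Remodelling enzymes and their inhibitors had 8 of 8 negative values with PKLR, a median of −0.74 and 0 calls. Mmp2, a gelatinase of mesenchymal cells, was at 6.67, 8.85, 3.31, 4.85 and 3.58 CPM with GFP and at 3.31, 2.38, 2.01, 3.15 and 1.62 CPM with PKLR, so the 2 groups met at 3.31. Its log2 fold change was −1.11 (SE 0.29, adjusted p = 0.0779). Loxl1, a lysyl oxidase that acts on elastic fibres, had −1.05 (SE 0.26, adjusted p = 0.0688), while Loxl2 had −0.63 and Lox −0.86 (adjusted p = 0.229 and 0.369). Timp1, an inhibitor of metalloproteinases that is low in healthy liver, was at 2.39, 1.72, 0.283, 0.490 and 0.352 CPM with GFP and at 0.637, 0.059, 0.190, 0.297 and 0.176 CPM with PKLR. GFP livers 1 and 2 alone were above 1 CPM, and the log2 fold change of −1.90 had an SE of 0.71 (adjusted p = 0.175). Timp2, Timp3 and Mmp14 had smaller values, from −0.48 to −0.23.

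Among signal genes, Tgfb1 had a log2 fold change of −0.36 (SE 0.25, adjusted p = 0.481) with PKLR, and its levels ran from 5.47 to 11.99 CPM with GFP and from 4.01 to 8.03 CPM with PKLR. The receptors Pdgfra and Pdgfrb had −0.75 (SE 0.24, adjusted p = 0.123) and −0.64 (SE 0.17, adjusted p = 0.0779). Contractile genes gave no common direction. Acta2 was at 2.39, 2.92, 1.57, 1.20 and 1.19 CPM with GFP and at 2.08, 2.77, 1.63, 1.99 and 0.915 CPM with PKLR, a log2 fold change of 0.03 (SE 0.32, adjusted p = 0.971). Tagln, a smooth muscle actin-binding protein, had −0.04 (SE 0.26), and Des (desmin, the filament protein of stellate cells and muscle) had −0.64 (SE 0.21, adjusted p = 0.128). GFP livers 1 and 2 were also the highest GFP livers for Acta2, the usual marker of myofibroblasts, and only PKLR liver 2 reached their range.

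The number of members called with PKLR depended strongly on the test and on the livers. DESeq2 called 20, of which 19 were falls and 1 (Col15a1) a rise; it called 3.51% of all genes lower. A fit of all 20 libraries called 10, all lower (1.33% of all genes). Without GFP replicate 1, edgeR called 0 members (0.489% of all genes lower), 19 were lower at an unadjusted p under 0.05 (7.13% of all genes), 35 of 38 values stayed negative and the median was −0.64. Thbs2 then had −0.95 (adjusted p = 0.0633) and Bgn −0.78 (adjusted p = 0.101). GFP replicate 2 was the highest GFP liver for 23 members and GFP replicate 1 for 13. With both left out, a choice made after seeing the data, edgeR called 0 members (0.268% of all genes lower), 11 were lower at an unadjusted p under 0.05 (6.17% of all genes), 33 of 38 values stayed negative and the median was −0.42.

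**Figure D2:**
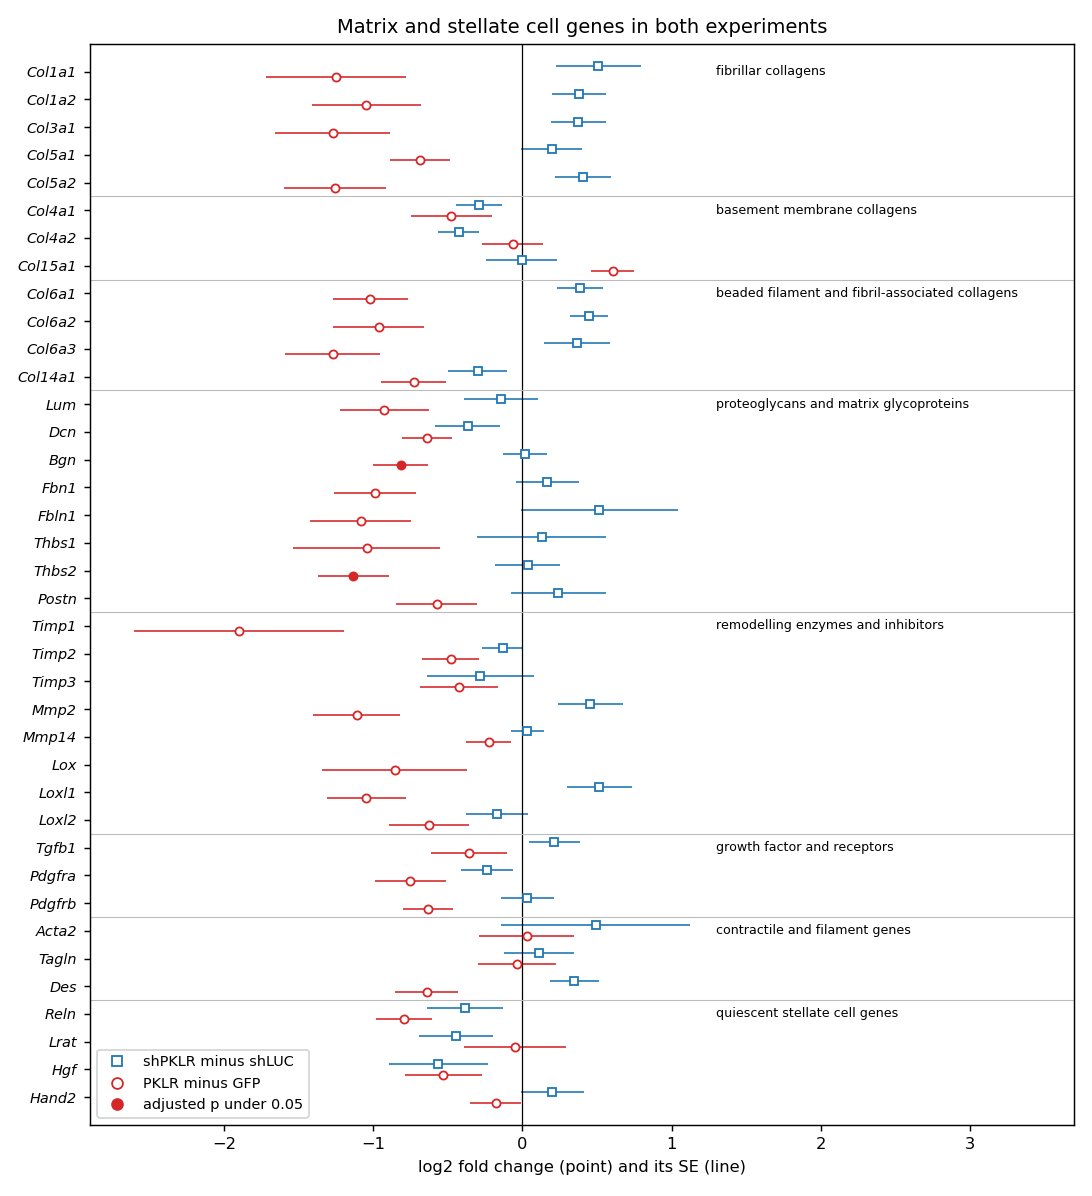
Log2 fold change (x axis) of each member in the knockdown (squares, shPKLR minus shLUC) and in the overexpression (circles, PKLR minus GFP), with its SE as a line and filled symbols for an adjusted p under 0.05. The circles lie left of 0 for 36 of 38 members, only Thbs2 and Bgn are filled, and no square is shown for Timp1 and Lox, which were below the filter on low counts in the knockdown.

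In the knockdown, 36 of the 38 members passed the filter on low counts, and 0 were called, by edgeR (0.00641% of all genes tested) or by DESeq2 (1.67%). At an unadjusted p under 0.05 there were 5 members, 4 higher and 1 lower with shPKLR, against 15% of all genes. The median log2 fold change was 0.12, against 0.02 over all genes, with 23 values positive and 13 negative. Fibrillar collagens had 5 of 5 positive values with a median of 0.38: Col1a1 had 0.51 (SE 0.28, adjusted p = 0.391), Col3a1 0.37 (SE 0.19, adjusted p = 0.351) and Col5a2 0.41 (SE 0.19, adjusted p = 0.331). The shPKLR livers split for Col1a1, with livers 3, 4 and 5 above every shLUC liver and livers 1 and 2 inside the shLUC range.

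Col6a2 and Col4a2 were the 2 members whose knockdown groups did not overlap. Col6a2 was at 3.81, 3.99, 4.24, 4.61 and 4.05 CPM with shLUC and at 4.85, 5.29, 5.90, 5.95 and 6.40 CPM with shPKLR (log2 fold change 0.45, SE 0.13, adjusted p = 0.224). Every shPKLR liver was above every shLUC liver for 1.41% of all genes. Col4a2 was at 17.96, 25.6, 17.3, 19.0 and 17.2 CPM with shLUC and at 14.4, 12.1, 15.5, 14.1 and 16.5 CPM with shPKLR (log2 fold change −0.43, SE 0.14, adjusted p = 0.248). The reverse order held for 1.81% of all genes. Both are thus small differences, and neither passed the test.

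Other knockdown values were small or uneven. The basement membrane collagens had 3 of 3 negative values (median −0.29), with Col15a1 at −0.01. Bgn and Thbs2, the members that fell with PKLR, had 0.02 (SE 0.15) and 0.04 (SE 0.22) with shPKLR. Loxl1 had 0.52 (SE 0.22, adjusted p = 0.311) and Mmp2 0.46 (SE 0.22, adjusted p = 0.346). Postn reached 11.99 CPM in shPKLR replicate 1 and lay between 3.21 and 6.55 CPM in the other 4, and without that liver its log2 fold change was −0.14 in place of 0.24.

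Acta2 was uneven in both knockdown groups, at 2.49, 0.951, 6.40, 2.65 and 1.93 CPM with shLUC and at 9.32, 6.91, 0.818, 2.09 and 1.35 CPM with shPKLR. Its log2 fold change was 0.49 with an SE of 0.63 (adjusted p = 0.7), and −0.06 without shPKLR replicate 1. The 7 vascular smooth muscle markers summed to 20.5 and 16.3 CPM in shPKLR livers 1 and 2 and to 14.8 CPM in shLUC liver 3, and to between 7.26 and 11.2 CPM in the other 7 livers of the experiment. The 4 adipocyte markers summed to 2.21, 7.07 and 2.45 CPM in those same 3 livers and to at most 0.187 CPM in the other 7. The 3 livers with high Acta2 were therefore those with the highest sums of both lists; their part in the Acta2 values was not tested.

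The joint model of all 20 livers compared a member's responses to raised and to lowered Pklr, each relative to the control of its own experiment. The difference was the PKLR minus GFP effect less the shPKLR minus shLUC effect. Of the 38 members, 34 had a negative difference, with a median of −0.80 against −0.06 over all 16407 genes. Timp1 and Lox, which were below the filter on low counts in the knockdown alone, were among the 34. The difference passed the test for 11 members, all negative, where 2.75% of all genes had a negative called difference. These were Col1a2, Col3a1, Col5a2, the 3 type VI collagen genes, Bgn, Thbs2, Mmp2, Loxl1 and Des. Col6a1 had the smallest adjusted p (difference −1.43, SE 0.30, adjusted p = 0.0106), and Col5a2 had the most negative difference among the called members (−1.68, SE 0.40, adjusted p = 0.0194). Mmp2 had −1.59 (SE 0.38, adjusted p = 0.0186) and Loxl1 −1.58 (SE 0.35, adjusted p = 0.0135). Col1a1 had −1.78 but a wider SE of 0.57 (adjusted p = 0.0647).

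The type VI collagens, Col5a2, Mmp2 and Loxl1 kept their call whichever liver was left out. These 6 were called in each of the 20 fits that left out 1 liver, with adjusted p up to 0.042, and they were also the 6 called without GFP replicate 1 (1.41% of all genes). Col3a1 was called in 12 of the 20 fits, Thbs2 in 8, Des in 7, and Col1a2 and Bgn in 6 each. Leaving out shLUC replicate 1 or 2, GFP replicate 1 or 2, or PKLR replicate 3 or 5 ended the call of all 5, and leaving out other livers ended some. With GFP replicates 1 and 2 both left out, edgeR called 0 members (0.67% of all genes), 13 were negative at an unadjusted p under 0.05 (9.59% of all genes) and the median was −0.38. The GFP group then held 3 livers. The 2 experiments have separate control vectors, and which of the 4 groups carries a difference is not given by the model.

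**Figure D3:**
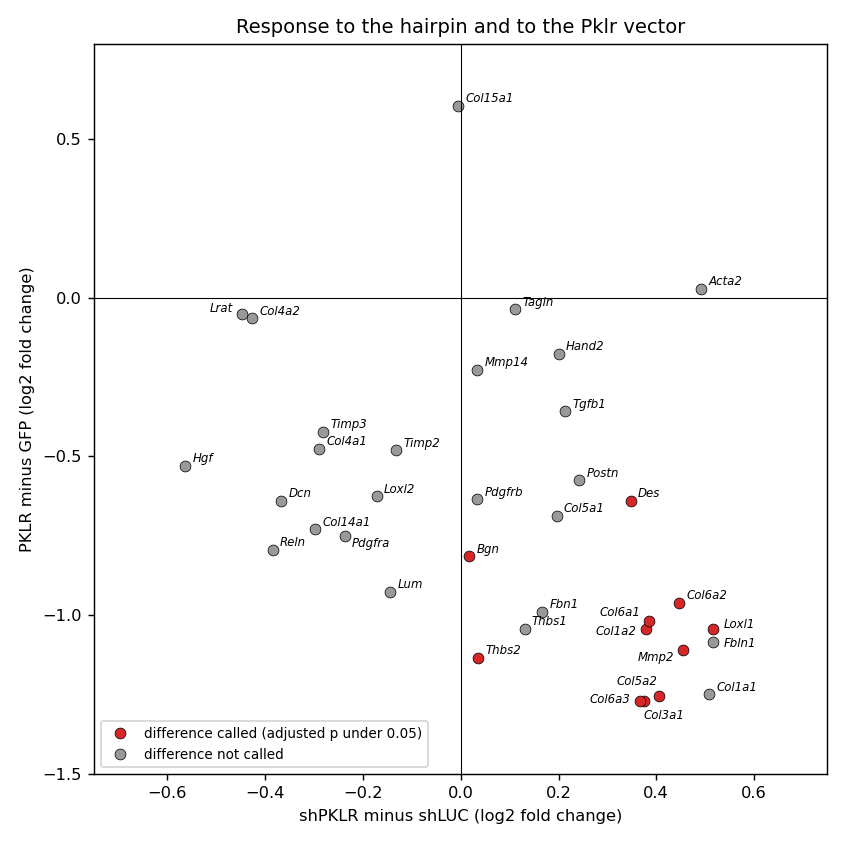
Log2 fold change with shPKLR (x axis) against log2 fold change with PKLR (y axis) for the 36 members tested in both experiments, in red where the difference of the 2 was called. The red points lie below 0 on the y axis and at or right of 0 on the x axis, between 0.02 (Bgn) and 0.52 (Loxl1).

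Group means over all 4 vectors placed GFP apart from the other 3. The median ratio of GFP to shLUC means over the 38 members was 1.67, against 1.02 over all genes, while PKLR to shLUC had 1.05 and shPKLR to shLUC 1.10. Timp1 had the highest GFP to shLUC ratio, 6.26, but with only 1 to 9 counts in each shLUC liver. Its GFP mean rested on GFP livers 1 and 2 (2.39 and 1.72 CPM), and its GFP median was 0.490 CPM. The PKLR livers were thus near both knockdown groups in level, and the GFP mean was above all 3 for 34 members. The other 4 were Acta2 and Hand2, highest with shPKLR, Lrat, highest with shLUC, and Col15a1, highest with PKLR. Thbs2, for example, was at 2.05 ± 0.333 CPM with shLUC, 2.14 ± 0.589 with shPKLR, 4.47 ± 1.44 with GFP and 2.01 ± 0.493 with PKLR (SD, n = 5 each). Single livers overlapped: GFP replicate 3, at 2.644 CPM, was below the highest shPKLR liver (2.965 CPM) and the highest PKLR liver (2.791 CPM). All GFP means here include GFP livers 1 and 2. The ratios between experiments were not tested, because vector type and experiment cannot be told apart.

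The rank of a liver within its group was shared by many members. GFP replicate 3 was the lowest GFP liver for 27 of 38 members, and PKLR replicate 5 was the lowest PKLR liver for 27. PKLR replicate 1 was the highest of its group for 22. Many members thus had their high and low values in the same livers, also among livers given the same vector.

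Quiescent markers (Reln, Lrat, Hgf and Hand2) and activation markers (12 genes: Col1a1, Col1a2, Col3a1, Timp1, Lox, Loxl2, Mmp2, Postn, Tgfb1, Pdgfrb, Acta2 and Tagln) were then set side by side. With PKLR, 4 of 4 quiescent and 11 of 12 activation markers had negative values, with medians of −0.35 and −0.75, and 0 of either list were called by edgeR. DESeq2 called Reln lower among the quiescent markers. It also called Col1a2, Col3a1, Mmp2 and Pdgfrb lower among the activation markers, and 3.51% of all genes. Reln, an extracellular glycoprotein, was at 49.8, 57.9, 38.6, 51.9 and 41.5 CPM with GFP and at 39.0, 32.4, 24.1, 22.5 and 18.7 CPM with PKLR, with 1 PKLR liver above the lowest GFP liver (log2 fold change −0.80, SE 0.19, adjusted p = 0.0608). Lrat was at 13.8, 11.5, 8.28, 16.2 and 16.7 CPM with GFP and at 15.1, 23.0, 11.6, 5.61 and 8.27 CPM with PKLR, and its log2 fold change was −0.05 (SE 0.34, adjusted p = 0.953). Hgf, a growth factor for hepatocytes, had −0.53 (SE 0.26, adjusted p = 0.294), and the transcription factor gene Hand2 had −0.18 (SE 0.17, adjusted p = 0.616). No quiescent marker had a positive value with PKLR in this fit.

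Without GFP replicate 1 the medians with PKLR were −0.30 for quiescent and −0.54 for activation markers. Without both GFP replicates 1 and 2 they were −0.20 and −0.42. The summed activation markers reached 256 and 235 CPM in GFP livers 1 and 2 and 87.5, 148 and 109 CPM in livers 3 to 5, against 56.1 to 120 CPM with PKLR, 62.6 to 84.3 CPM with shLUC and 66.5 to 97.2 CPM with shPKLR. The summed quiescent markers were at 53.3 to 79.1 CPM with GFP and at 32.0 to 61.5 CPM with PKLR. GFP livers 1 and 2 thus stood out for activation markers but lay within reach of the other GFP livers for quiescent ones.

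With shPKLR the lists had values of opposite sign. Quiescent markers had 3 of 4 negative values and a median of −0.42: Hgf −0.56 (SE 0.33, adjusted p = 0.409), Lrat −0.45 (SE 0.25, adjusted p = 0.389) and Reln −0.38 (SE 0.26, adjusted p = 0.463), while Hand2 had 0.20. Activation markers had 9 of 10 positive values among those tested and a median of 0.31, with Loxl2 at −0.17. Without shPKLR replicate 1 they had 6 positive and 5 negative values and a median of 0.08, while the fibrillar collagens kept 5 of 5 positive values with a median of 0.42. The 12 macrophage markers had 12 of 12 positive values with shPKLR, with a median of 0.53, 0 called and 3 at an unadjusted p under 0.05, and summed to 145 to 268 CPM with shLUC and 133 to 350 CPM with shPKLR; their part in the matrix values was not tested. None of the 14 quiescent and activation markers tested passed in the knockdown. In the joint model the difference between the experiments was negative for 12 of 12 activation markers (median −0.82), with Col1a2, Col3a1 and Mmp2 called. The 12 include Timp1 and Lox, which were below the filter on low counts in the knockdown alone and were not called. The difference was negative for 2 of 4 quiescent markers (median −0.19), with 0 called and 0 at an unadjusted p under 0.05.

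**Figure D4:**
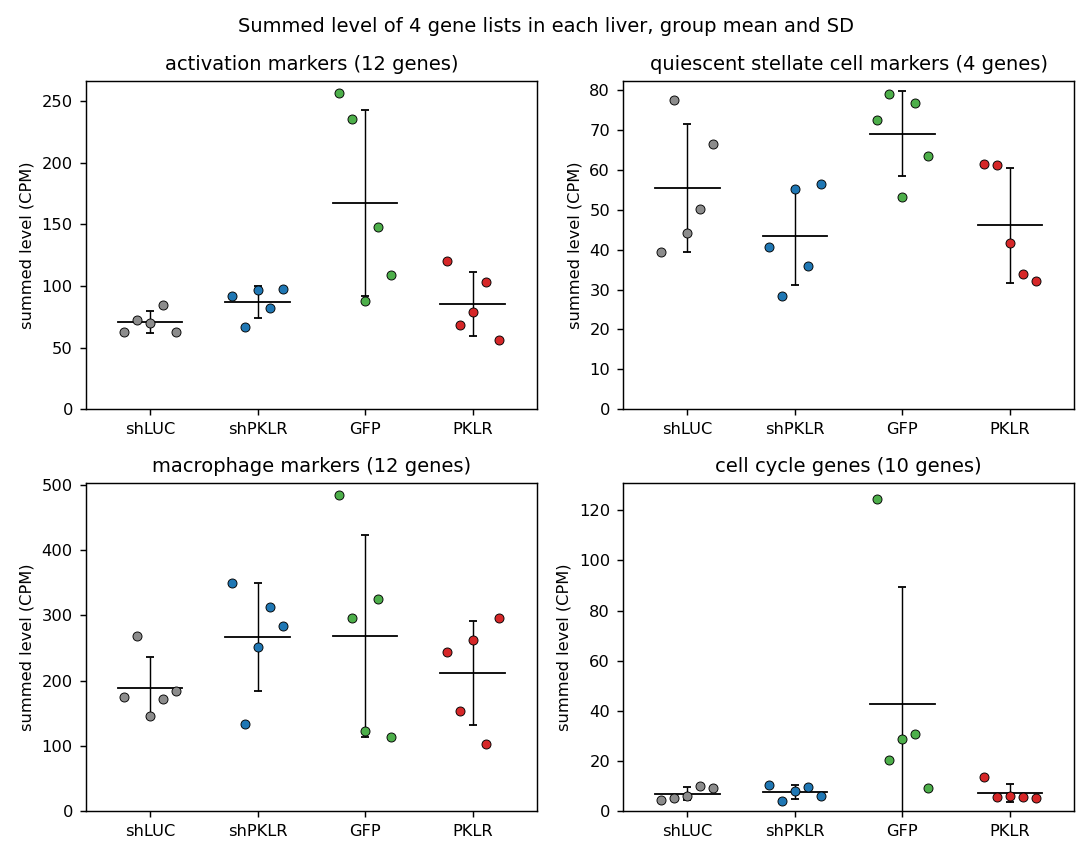
Summed CPM (y axis, from 0) of 12 activation markers, 4 quiescent markers, 12 macrophage markers and 10 cell cycle genes in each liver (points), with the group mean and SD (n = 5; the lower SD bar of the GFP cell cycle sum is cut at 0). GFP replicate 1 is the highest liver for activation (256 CPM), macrophage (484 CPM) and cell cycle (125 CPM) sums.

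Markers of other cell types were also high in some of the GFP livers. Of 12 macrophage markers, 1 (Gpnmb, a glycoprotein of lipid-laden macrophages) fell with PKLR, from a mean of 9.11 to 0.747 CPM (adjusted p = 0.0427). Without GFP replicate 1, 0 of the 12 were called, and the list went from 8 negative and 4 positive values to 6 of each. The macrophage sum was 484 CPM in GFP replicate 1 and between 113 and 325 CPM in the other GFP livers, against 103 to 295 CPM with PKLR. The 10 cell cycle genes summed to 125 CPM in GFP replicate 1, to 9.29 to 30.8 CPM in the other GFP livers and to 5.18 to 13.7 CPM with PKLR. Of the 9 tested, 9 were lower with PKLR at an unadjusted p under 0.05 (9.16% of all genes), with a median of −2.52. Without GFP replicate 1 the count was again 9 (7.13% of all genes), with a median of −1.61. In the full fit 1 of the 9 was called lower, 2 without GFP replicate 1 and 0 without GFP replicates 1 and 2. Endothelial markers (0 of 10 called) summed to 90.4 to 160 CPM with GFP and 92.9 to 166 CPM with PKLR. Portal fibroblast and mesothelial markers (0 of 7 tested called) summed to 10.1 to 25.8 CPM with GFP and 6.65 to 14.6 CPM with PKLR. No marker of these 4 lists was at 0 in all livers of a group. Of the other lists, 0 of 8 hepatocyte, 0 of 8 lymphocyte and 0 of 4 tested vascular smooth muscle markers were called with PKLR, and 1 of 7 tested cholangiocyte markers, Krt23, a keratin, fell (−1.62, adjusted p = 0.00716). The part of other cell types in the matrix values was not tested.

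Further stellate cell and matrix genes were counted from lists chosen by function. Of 16 other stellate cell genes, 4 fell with PKLR (0.846% of all genes) and 0 rose; 1 was called without GFP replicate 1 (0.489% of all genes) and 0 without GFP replicates 1 and 2 (0.268%). Among them Cygb, a globin of stellate cells, fell from 16.0 ± 5.04 CPM with GFP to 8.47 ± 0.698 CPM with PKLR (SD, n = 5 each; log2 fold change −0.90, adjusted p = 0.0293). Of 20 tested genes of the TGF-beta pathway 0 were called, and the smallest p was that of Ccn2, a matricellular target of the pathway (−1.05, adjusted p = 0.0826). None of 4 PDGF ligands and none of 17 tested genes of collagen processing passed; Crtap, part of a prolyl hydroxylase complex, had −0.50 (adjusted p = 0.105). In these 3 lists 5, 1 and 6 genes were lower at an unadjusted p under 0.05, as were 9.16% of all genes. In collagen processing 4 were higher at that level, with the smallest p for Plod1, a lysyl hydroxylase (0.27, adjusted p = 0.106).

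Of 23 other matrix genes tested, 1 fell and 1 rose with PKLR, and 0 were called in either direction without GFP replicate 1. Over all 15842 genes tested, 134 were called lower and 188 higher. Negative values were found for 21 of the 23, with a median of −0.36. At an unadjusted p under 0.05, 8 were lower (9.16% of all genes) and 1 was higher. Nid2, a linker protein of basement membranes, fell by 0.72 on the log2 scale (adjusted p = 0.036). Fn1, fibronectin, which hepatocytes secrete in large amounts, rose by 0.50 (adjusted p = 0.05 after rounding), from 974 ± 129 to 1362 ± 133 CPM (SD, n = 5 each). Of 7 other metalloproteinase genes tested 0 passed; Mmp12, a macrophage elastase, was at 7.51 ± 8.03 CPM with GFP and 0.642 ± 0.662 CPM with PKLR (SD, n = 5 each; adjusted p = 0.099). In the knockdown 0 genes of these 6 lists passed, and Col5a3 had the smallest p among other matrix genes (0.91, adjusted p = 0.292).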

How the data were processed

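RNA of 20 livers was sequenced from a stranded total RNA kit, per the labels' protocols. Each experiment has its own table, in which the authors deposited raw counts of reads for every gene. The submitters' processing notes name HISAT2, DESeq2, GRCm38 and mm10. Tool versions, the read counter, its annotation and its use of strand were not given in the sources used here. Groups and replicate numbers came from each library's labels, and symbols from GENCODE vM21 (26912 and 26146 identifiers matched).

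The 38 members and all gene lists were chosen with earlier results of these data known. Every member was named; of other lists, at most the 2 genes with the smallest p, except an item that is not reported here. edgeR 4.0.16 in R 4.3.3 (filterByExpr, TMM, robust quasi-likelihood) was fitted to all genes of each experiment, with calls at an adjusted p (Benjamini-Hochberg) under 0.05. The SE is the log2 fold change divided by the square root of F. The difference used 1 model of all 20 livers. Printed CPM use 1 TMM scaling of all 20 livers, so ratios of CPM can depart slightly from fitted fold changes. Alternatives were DESeq2 1.42.0, RLE size factors, no filter, the replicate number as a term, the leaving out of single libraries, and 1 fit over both experiments. Tested on simulated counts, 79.2% of 101 genes changed 2-fold were called in the overexpression (15692 genes), 67.7% of 99 in the knockdown (15460 genes) and 51.9% of 104 in the difference (16218 genes). These counts were drawn separately for each gene, without livers in which many genes shift together. The rates therefore need not hold for the members, many of which were high or low in the same livers. Promoter windows came from RefSeq on GRCm38.p6.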

Additional observations from a re-analysis of the deposited data

Results flagged for a closer look

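In 3 of 152 sets of 5 livers (38 members in 4 groups), a liver lay far from the others; chance marks about 1 in 20 such sets. Col4a2 was at 25.6 CPM in shLUC replicate 2, with the other 4 between 17.2 and 19.0 CPM, and at 30.7 CPM in PKLR replicate 1, with the other 4 between 17.5 and 20.3 CPM. Tgfb1 was at 5.51 CPM in shPKLR replicate 2, with the other 4 between 8.85 and 9.59 CPM. None of the 3 was a GFP liver. The rule used, Dixon's, asks whether 1 liver lies apart from the other 4, so 2 livers that are high together can hide each other. GFP livers 1 and 2 were both high for Timp1, for example (2.39 and 1.72 CPM), and were not marked.

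For 11 members the response to PKLR differed from the response to shPKLR by edgeR's test in the joint model. The differences on the log2 scale were −1.45 for Col1a2, −1.67 for Col3a1, −1.68 for Col5a2, −1.43 for Col6a1, −1.43 for Col6a2, −1.66 for Col6a3, −0.86 for Bgn, −1.19 for Thbs2, −1.59 for Mmp2, −1.58 for Loxl1 and −1.01 for Des. Without GFP replicates 1 and 2 none of these was called.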

How the results depend on the processing

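Knockdown calls of members stayed at 0 under every alternative, and the median kept its sign (0.03 to 0.19 with a liver left out). In the overexpression the median stayed negative (−0.87 to −0.64 with a liver left out, −0.42 without GFP livers 1 and 2), but the 2 calls became 20 by DESeq2, 10 in 1 fit of all 20 libraries, 0 without GFP livers 1 and 2, and 0 to 7 with a single liver left out: 7 without GFP replicate 3 or GFP replicate 5. The 11 called differences (2.75% of all genes) became 7 without a filter on low counts, 0 without GFP livers 1 and 2 (0.67%), and 6 to 14 with a single liver left out. DESeq2 called 14. The share of all genes called also moved with the setting. In the overexpression it was 0.846% lower by edgeR, 3.51% by DESeq2 and 1.33% in 1 fit of all 20 libraries. A change in the count of members called is thus not by itself a result about the members. Some fold changes, including those of Acta2 (0.49) and Postn (0.24) in the knockdown, changed sign when a liver was left out. Their log2 ranges in the knockdown were Acta2 −0.062 to 1.02, Bgn −0.066 to 0.094, Col15a1 −0.10 to 0.18, Lum −0.35 to 0.045, Mmp14 −0.016 to 0.086, Pdgfrb −0.066 to 0.125, Postn −0.14 to 0.42, Tagln −0.082 to 0.27, Thbs1 −0.17 to 0.42 and Thbs2 −0.10 to 0.14, and in the overexpression Acta2 −0.15 to 0.25, Col4a2 −0.23 to 0.046, Lrat −0.37 to 0.14 and Tagln −0.15 to 0.15. In the knockdown, DESeq2 gave −0.005 for Bgn and 1 fit of all 20 libraries gave 0.004 for Col15a1. Without GFP livers 1 and 2, Col4a2 had 0.16, Lox 0.23 and Tagln 0.47 with PKLR. The cause of these changes was not tested.

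With the replicate number as a block, the overexpression called 12 members in place of 2 (and 280 of 15842 genes lower in place of 134), Thbs1 had −0.012 in the knockdown and Tagln 0.02 in the overexpression, and the difference called 11. The labels give livers a replicate number and name no pairing. For livers with the same number, the correlation of their deviations from the group means ran from −0.19 to 0.28 over the 5 pairs of the knockdown. It ran from −0.17 to 0.28 over those of the overexpression. So few pairs cannot show whether same-numbered livers were handled together. Over all genes, the overexpression called 134 genes lower by edgeR and 619 by DESeq2, and the knockdown 1 and 268 in either direction. In the overexpression the largest SE were those of Timp1 (0.706), Thbs1 (0.492) and Lox (0.485), all at low levels. In the knockdown, where Lox and Timp1 were not tested, the largest were those of Acta2 (0.633) and Fbln1 (0.524).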
